A study of Mus musculus with 8 samples.

Results

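The genes described here are 3 inhibitors of cyclin-dependent kinases (CDKs) that mark senescent cells, Cdkn1a, Cdkn2a and Cdkn2b, and 7 other genes. Like Cdkn1a, these 7 are established targets of the tumour suppressor p53, namely Mdm2, Ccng1, Trp53inp1, Phlda3, Bbc3, Eda2r and Gdf15. The genes were taken by symbol from the gene count table, in which all 10 were found among 18824 genes. All 10 passed the filter on low counts and were tested. The table covers 8 bulk RNA sequencing libraries of mouse lung. Wild-type mice gave 4 libraries (WT_BLM) and Slc15a3-/- mice gave the other 4 (KO_BLM). The latter lack the endolysosomal peptide and histidine transporter SLC15A3, also named PHT2. Both groups received bleomycin, a drug that breaks DNA, at 2 mg/kg in 50 µl of saline through the trachea at 8 weeks of age, and lungs were taken on day 21. Lungs given saline alone were not analysed here, and no value shows the response to bleomycin itself. The labels do not say that libraries came from separate animals, so p-values measure the spread between these libraries, which may be partly technical. In whole lung, fewer cells of a type and less RNA per cell cannot be told apart.

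DNA damage stabilises p53, which switches on genes that stop the cell cycle, repair DNA, trigger apoptosis or restrain p53 itself. Cdkn1a encodes p21, which blocks CDK2, while Cdkn2a and Cdkn2b encode p16INK4a and p15INK4b, which block CDK4 and CDK6 and so keep the retinoblastoma protein active. Cdkn2a also encodes ARF, from another first exon and reading frame, which holds MDM2 away from p53. In lung injured with bleomycin these genes are known from alveolar epithelial cells that stall between the type 2 and type 1 state, from fibroblasts and from macrophages.

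The starts of the CDK inhibitor genes are shown because all 3 genes were called lower. Cdkn1a and Cdkn2a have 2 starts each, and the downstream start of Cdkn1a (chr17:29093519-29093768), whose window held 2 GC boxes and no p53 motif, is not printed. The sequences are the last 150 bases before a start in RefSeq (GRCm38.p6, the assembly named mm10 in the submitters' processing notes), written 5′ to 3′ on the gene's strand. In the upstream start of Cdkn1a (chr17:29090829-29090978, plus strand) capitals mark CATG pairs spaced as CATGNNNNNNCATG, a core shared by many p53 response elements. In Cdkn2b (chr4:89311033-89311182, minus strand) they mark TGACGTCA, the cAMP response element, and at the ARF start of Cdkn2a (chr4:89294620-89294769, minus strand) they mark GGGCGG, the GC box. The INK4a start of Cdkn2a (chr4:89282193-89282342, minus strand) held none of these motifs.

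Cdkn1a upstream start: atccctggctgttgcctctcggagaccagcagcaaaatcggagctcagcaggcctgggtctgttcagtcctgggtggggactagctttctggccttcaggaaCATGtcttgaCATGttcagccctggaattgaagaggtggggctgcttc

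Cdkn2a ARF start: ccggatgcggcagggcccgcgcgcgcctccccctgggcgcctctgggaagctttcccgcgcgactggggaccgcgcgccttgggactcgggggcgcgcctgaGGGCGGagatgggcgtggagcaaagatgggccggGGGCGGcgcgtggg

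Cdkn2a INK4a start: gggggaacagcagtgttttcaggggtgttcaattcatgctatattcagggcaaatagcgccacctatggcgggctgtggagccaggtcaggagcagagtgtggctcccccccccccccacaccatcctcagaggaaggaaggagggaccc

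Cdkn2b start: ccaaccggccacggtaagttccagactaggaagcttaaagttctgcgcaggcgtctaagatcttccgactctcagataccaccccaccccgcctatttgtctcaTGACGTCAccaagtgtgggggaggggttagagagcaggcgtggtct

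A script searched both strands of the 250 bases before each start. RefSeq windows matched 9 of the 10 genes, with 14 starts in all, and Trp53inp1 had none. The CATGNNNNNNCATG pair stood in 0.49% of 32851 mouse windows and, among these genes, in the upstream Cdkn1a window alone. The 10-base consensus known as the p53 half-site stood in 7.13% of windows and in those of Cdkn1a, Mdm2 and Ccng1. The upstream Cdkn1a window held 2 matches, of which 1 overlapped the CATG pair and the other began 73 bases before the start, upstream of the pair. Stretches of 60 bases around it are given for Mdm2 (chr10:117710910-117710969, minus strand) and Ccng1 (chr11:40755437-40755496, minus strand), with the half-site in capitals, because these are the other two genes with a match.

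Mdm2: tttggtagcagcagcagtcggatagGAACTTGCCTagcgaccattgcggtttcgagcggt

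Ccng1: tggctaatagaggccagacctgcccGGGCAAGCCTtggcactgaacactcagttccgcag

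TGACGTCA stood in 1.55% of all windows and GGGCGG in 32.7%, against 8 of the 14 windows of these genes. A match describes letters in a window and is no evidence that a factor binds there.

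Slc15a3 counts checked the labels, with 51.3 ± 4.11 CPM (read counts scaled to a common library size; SD, n = 4) in WT_BLM and 0.61 ± 0.303 in KO_BLM. Total counts per library were 17627999 to 20180831. Over all genes, edgeR's quasi-likelihood test at an adjusted p of 0.05 called 6118 of 14746 tested genes (41.5%), 3057 higher in KO_BLM (20.7%) and 3061 lower (20.8%), so a called gene was common in this comparison. RNA levels of cell type markers differed as well. Summed CPM of 10 fibroblast markers was 8974 to 10075 in WT_BLM and 3268 to 3537 in KO_BLM, that of 7 type 2 alveolar markers was 8487 to 12359 and 22152 to 34527, and no marker of these lists was at 0 in any library. The knockout libraries stood apart from each other in macrophage markers, which summed to 710, 946, 3031 and 3002 CPM in replicates 1 to 4 against 6445 to 7247 in WT_BLM.

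All 3 senescence-associated CDK inhibitors were lower in the knockout lungs, and in each case no knockout library reached the lowest wild-type library. Bbc3 was the 1 gene of the 10 that was higher. The other 6 did not pass the test. The 4 calls make 40% of the 10 genes, against 41.5% of all tested genes, and the 3 lower calls make 30% against 20.8%. The same 4 genes had groups that did not overlap, against 40.9% of all tested genes, so the share of called genes among these 10 was near the background. The median log2 fold change of the 10 was -0.23, against 0.0025 over all tested genes.

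**Figure D1:**
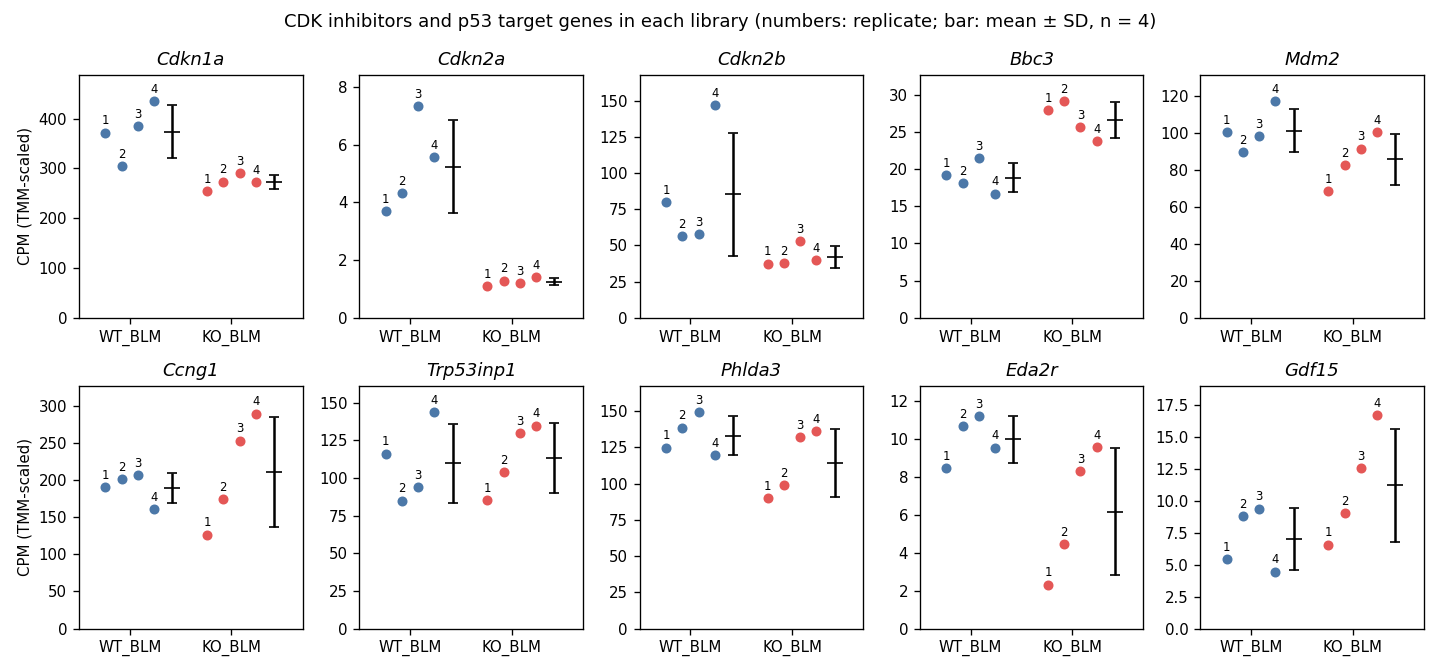
CPM (vertical axis, from 0, scaled by TMM factors) of each of the 10 genes in the 4 WT_BLM (blue) and 4 KO_BLM (red) libraries, numbered by replicate, with the mean and SD as a black bar. Cdkn1a, Cdkn2a and Cdkn2b are lower and Bbc3 higher in every KO_BLM library than in any WT_BLM library, and the groups overlap for the other 6 genes.

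Cdkn1a (chr17:29090979-29100722, plus strand) was the most abundant of the 10 genes. Its level was 372, 304, 385 and 435 CPM in WT_BLM replicates 1 to 4 and 254, 274, 290 and 273 CPM in the KO_BLM replicates. The highest knockout library lay below the lowest wild-type library, and the knockout libraries lay close together, with a coefficient of variation of 5.41% against 14.4% in wild type. The means were 374 ± 53.9 and 273 ± 14.7 CPM (SD, n = 4), a 1.37-fold lower level in KO_BLM (log2 fold change -0.45, SE 0.11, edgeR adjusted p = 0.00949). Markers of the transitional alveolar epithelium, the stalled state in which p21 is known to be high, summed to 2676 to 3354 CPM in WT_BLM and 1427 to 2016 in KO_BLM, and their part in the Cdkn1a difference was not tested.

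Cdkn2a (chr4:89274473-89294619, minus strand) had the largest difference of the 10. WT_BLM replicates 1 to 4 held 3.68, 4.31, 7.34 and 5.55 CPM and the KO_BLM replicates 1.1, 1.28, 1.20 and 1.41 CPM. All knockout libraries were under the lowest wild-type library by a wide margin. The mean was 5.22 ± 1.61 in WT_BLM and 1.25 ± 0.130 in KO_BLM, a 4.17-fold lower level (log2 fold change -2.06, SE 0.26, adjusted p = 0.00034). The counts behind these levels were low, with 67 reads in the lowest wild-type library (exact Poisson 95% interval 51.9 to 85.1) and 27 in the highest knockout library (17.8 to 39.3), and these intervals cover counting error only. The transcripts of both products share exons, and the count per gene does not separate p16INK4a from ARF. Macrophage markers summed to 6445 to 7247 CPM in WT_BLM and 710 to 3031 in KO_BLM, and their part in the Cdkn2a difference was not tested.

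Cdkn2b (chr4:89306289-89311032, minus strand), which lies next to Cdkn2a and is known to be induced by TGF-beta, was 79.8, 56.5, 58.0 and 147 CPM in WT_BLM replicates 1 to 4 and 37.3, 37.8, 53 and 40.0 CPM in the KO_BLM replicates. WT_BLM replicate 4 stood far above the other wild-type libraries, and KO_BLM replicate 3 came close to the lowest wild-type value. The mean was 85.4 ± 42.5 in WT_BLM and 42 ± 7.41 in KO_BLM, 2.03-fold lower (log2 fold change -1.02, SE 0.29, adjusted p = 0.018). Without WT_BLM replicate 4 the log2 fold change was -0.62 (adjusted p = 0.0153), and the call was lost without KO_BLM replicate 2 (adjusted p = 0.0516) and with limma on log2(FPKM + 1) (0.0536). The noncoding gene Gm12610 runs across Cdkn2b on the opposite strand, and whether reads were counted by strand is not given in the sources used here.

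On the other side of Cdkn2a from Cdkn2b, past the pseudogene Tgif2-ps1, lies Mtap, a methionine salvage enzyme that is often deleted together with Cdkn2a in tumours. Tgif2-ps1 and Gm12610, the nearest annotated neighbours, were not analysed here. Mtap was chosen after its values were seen and was lower in KO_BLM, at 23.2 ± 2.10 CPM against 30.8 ± 1.19 (log2 fold change -0.41, SE 0.09, adjusted p = 0.00564). The difference of Mtap was thus smaller than those of Cdkn2b and Cdkn2a on the log2 scale, although the differences between these genes were not tested.

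Of the 4 remaining CDK inhibitor genes tested, 1 was higher and 1 lower in KO_BLM, together 50% against 41.5% of all tested genes. Cdkn1b, which encodes p27 and holds resting cells out of the cycle, rose from 45.2 ± 4.84 CPM in WT_BLM to 69.2 ± 5.28 in KO_BLM (log2 fold change 0.61, SE 0.10, adjusted p = 0.00117). Its values were 40.4 to 50.9 CPM in wild-type and 63.8 to 75.3 in knockout libraries, without overlap. Cdkn2d, which encodes p19INK4d, fell from 27.1 ± 2.40 to 19.7 ± 3.14 CPM (log2 fold change -0.46, SE 0.13, adjusted p = 0.0167). Cdkn2c and Cdkn1c did not pass the test.

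Bbc3 encodes PUMA, a BH3-only protein that neutralises BCL2-type survival proteins and starts apoptosis. Bbc3 (chr7:16308398-16318334, plus strand) was 19.2, 18.1, 21.4 and 16.7 CPM in WT_BLM replicates 1 to 4 and 27.9, 29.1, 25.6 and 23.8 CPM in the KO_BLM replicates. Every knockout library was above every wild-type library. The mean rose from 18.8 ± 2.01 to 26.6 ± 2.36 CPM, 1.41-fold (log2 fold change 0.50, SE 0.11, adjusted p = 0.00551).

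Among 11 other tested genes of the BCL2 family, 1 was higher and 4 were lower in KO_BLM, with a median log2 fold change of -0.20. Together these calls make 45.5%, against 41.5% of all tested genes. The gene that rose was Bik, another BH3-only gene (log2 fold change 0.62, adjusted p = 0.0119). Those that fell were the pore formers Bok (-1.25, 0.000243) and Bak1 (-0.50, 0.00333), the BH3-only gene Bid (-0.46, 0.0284) and the survival gene Mcl1 (-0.24, 0.0326). The calls of Bid and Mcl1 were fragile. That of Bid was lost when WT_BLM replicate 1, 3 or 4 was left out, or KO_BLM replicate 1 or 2 (adjusted p at most 0.0832), and that of Mcl1 when WT_BLM replicate 1, 3 or 4 was left out, or any of KO_BLM replicates 1, 2 and 3 (at most 0.0784). Both were also lost with library totals alone (0.0826 and 0.124).

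Mdm2, the ubiquitin ligase that degrades p53 and is itself a p53 target, did not pass the test. Mdm2 (chr10:117688875-117710758, minus strand) was 101, 89.7, 98.5 and 117 CPM in WT_BLM replicates 1 to 4 and 68.5, 82.7, 91.6 and 101 CPM in the KO_BLM replicates. KO_BLM replicates 1 and 2 were under the wild-type range and replicates 3 and 4 were inside it. The log2 fold change was -0.24 (95% interval -0.52 to 0.04, adjusted p = 0.152).

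Ccng1 encodes cyclin G1, which recruits a phosphatase to MDM2. Ccng1 (chr11:40748552-40755309, minus strand) was 191, 201, 206 and 161 CPM in WT_BLM replicates 1 to 4 and 127, 175, 253 and 290 CPM in the KO_BLM replicates. The knockout libraries reached both below and above the wild-type range, with an SD of 73.9 against 20.1 CPM. The log2 fold change of 0.15 (95% interval -0.34 to 0.65, adjusted p = 0.609) turned to -0.04 without KO_BLM replicate 4 and to -0.13 under limma-voom with quality weights, so no direction is given.

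Trp53inp1 encodes a stress protein that acts with p53 and in autophagy. Trp53inp1 (chr4:11156441-11174379) was 116, 84.9, 93.6 and 144 CPM in WT_BLM replicates 1 to 4 and 85.4, 104, 130 and 135 CPM in the KO_BLM replicates. The groups covered almost the same range. The log2 fold change was 0.05 (95% interval -0.37 to 0.47, adjusted p = 0.852), and its sign turned when any of 4 single libraries was left out.

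Phlda3 encodes a small protein that competes with AKT for membrane lipids and so restrains survival signalling. Phlda3 (chr1:135766085-135769134, plus strand) was 125, 139, 149 and 120 CPM in WT_BLM replicates 1 to 4 and 89.8, 98.8, 132 and 136 CPM in the KO_BLM replicates. KO_BLM replicates 1 and 2 lay below all wild-type libraries and the other two inside their range. The log2 fold change was -0.22 (95% interval -0.54 to 0.10, adjusted p = 0.236).

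Eda2r encodes a receptor of the tumour necrosis factor family that binds the ligand EDA-A2. Eda2r (chrX:97333837-97377234, minus strand) was 8.47, 10.7, 11.2 and 9.53 CPM in WT_BLM replicates 1 to 4 and 2.31, 4.46, 8.29 and 9.54 CPM in the KO_BLM replicates. The knockout libraries spread over a 4.12-fold range, against 1.32-fold in wild type, and replicate 4 lay within the wild-type range. The mean was 9.96 ± 1.22 in WT_BLM and 6.15 ± 3.35 in KO_BLM, and the log2 fold change was -0.69 (95% interval -1.48 to 0.10, adjusted p = 0.141). Eda2r and Phlda3 were called lower by limma-voom with quality weights (log2 fold changes -1.13 and -0.39, adjusted p = 0.0085 and 0.0207), which gave KO_BLM replicate 2 a weight of 3.17 and replicate 4 a weight of 0.527. Without weights, an alternative added after the data were seen, neither was called (adjusted p = 0.0698 and 0.202). The pseudogene Gm18111 overlaps Eda2r, and reads shared with it could not be told apart.

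Beside Eda2r, the ligand gene Eda and the related receptor gene Edar did not pass the test. Edaradd, the adaptor of EDAR, was called higher at a low level, 1.71 ± 0.485 CPM against 0.882 ± 0.276 (log2 fold change 0.95, SE 0.31, adjusted p = 0.0353). That call was lost when WT_BLM replicate 1 or 4 was left out, or KO_BLM replicate 3 or 4 (adjusted p at most 0.0971) and under limma-voom with quality weights (0.0649).

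Gdf15 encodes a secreted stress cytokine of the TGF-beta superfamily. Gdf15 (chr8:70629393-70632470, minus strand) was 5.44, 8.78, 9.38 and 4.47 CPM in WT_BLM replicates 1 to 4 and 6.56, 9.04, 12.6 and 16.7 CPM in the KO_BLM replicates. KO_BLM replicates 3 and 4 were above every wild-type library and replicates 1 and 2 within the wild-type range. The mean was 7.02 ± 2.43 in WT_BLM and 11.2 ± 4.4 in KO_BLM, and the log2 fold change of 0.68 did not pass (95% interval -0.03 to 1.38, adjusted p = 0.112). Without KO_BLM replicate 1 it was 0.86 and passed (adjusted p = 0.0467).

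**Figure D2:**
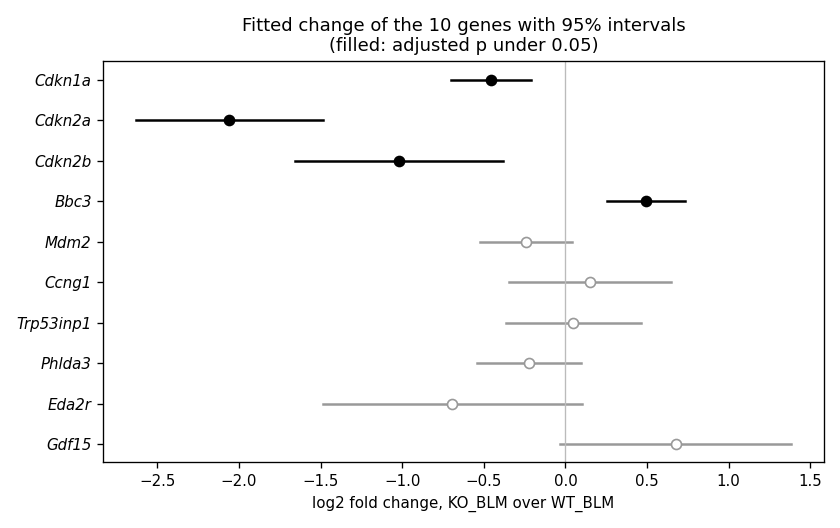
Fitted log2 fold change of KO_BLM over WT_BLM (horizontal axis) with its 95% interval for each of the 10 genes, filled where the adjusted p was under 0.05. The intervals of Cdkn1a, Cdkn2a and Cdkn2b lie below 0 and that of Bbc3 above it, and those of the other 6 genes include 0.

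The 6 genes that did not pass had the same ranking of the knockout libraries. Mdm2, Gdf15, Ccng1, Trp53inp1, Phlda3 and Eda2r were each lowest in KO_BLM replicate 1, next in replicate 2, then in replicate 3, and highest in replicate 4. This ranking was noticed after the values were seen. It held for 60% of the 10 genes against 9.17% of all tested genes, and for 6 of the 30 other p53 targets. It also held for 50% of the transitional, 40% of the fibroblast and 27.3% of the macrophage markers, but for 0 of the 7 type 2 alveolar markers. Among the secreted and surface genes described below it held for 29%, so it was not particular to these 10 genes. Relative to the wild-type mean, Eda2r was at 23.2%, 44.8%, 83.2% and 95.8% in KO_BLM replicates 1 to 4, and Gdf15 at 93.4%, 129%, 179% and 238%. Cdkn1a stayed at 68.0% to 77.7% and Cdkn2a at 21.1% to 27.0% in the same libraries, so neither had this wide spread. Beside macrophage markers, type 2 alveolar markers also differed among these libraries, at 34527, 32328, 25168 and 22152 CPM in KO_BLM replicates 1 to 4, as did transitional markers, at 1427, 1460, 1919 and 2016 CPM. The part of these cell types in the ranking was not tested.

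**Figure D3:**
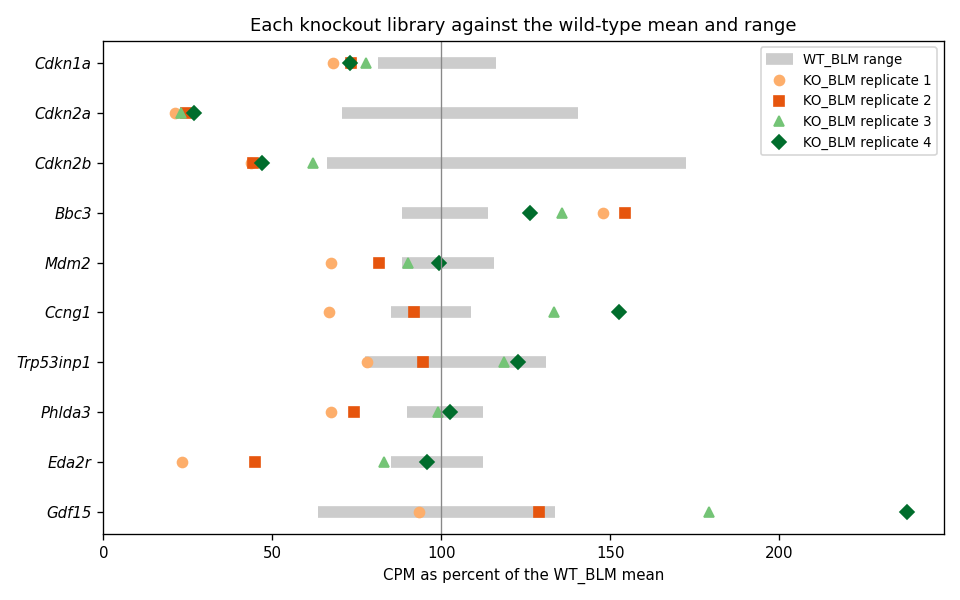
CPM of each KO_BLM library as a percent of the WT_BLM mean (horizontal axis, from 0) for the 10 genes, with the range of the WT_BLM libraries as a grey bar. Mdm2, Ccng1, Trp53inp1, Phlda3, Eda2r and Gdf15 run from replicate 1 at the left to replicate 4 at the right, whereas Cdkn1a, at 68.0% to 77.7%, and Cdkn2a, at 21.1% to 27.0%, are tight.

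**Figure D4:**
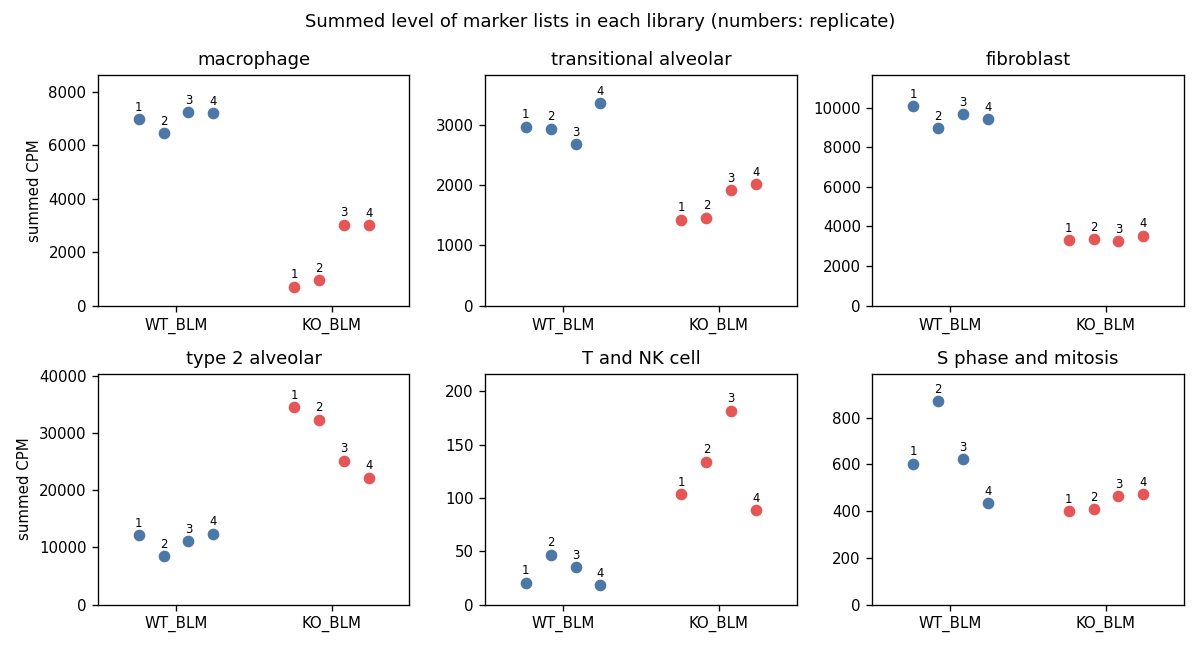
Summed CPM (vertical axes, from 0) of 6 gene lists in each WT_BLM (blue) and KO_BLM (red) library, numbered by replicate. Macrophage, transitional and fibroblast sums are lower in all KO_BLM libraries, type 2 alveolar and T and NK cell sums are higher, and KO_BLM replicates 1 and 2 lie below replicates 3 and 4 for macrophage markers.

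Levels between genes are compared in FPKM, which divides by gene length. In WT_BLM, Cdkn1a stood highest at 178 ± 21.6 FPKM (SD, n = 4), followed by Phlda3 at 88.2 ± 11.3, Cdkn2b at 58.8 ± 27.5, Ccng1 at 53 ± 6.98, Trp53inp1 at 19.5 ± 4.06, Mdm2 at 13.3 ± 1.13, Bbc3 at 5.61 ± 0.702, Cdkn2a at 4.47 ± 1.41, Gdf15 at 3.70 ± 1.37 and Eda2r at 1.68 ± 0.243. In this order, the SD range of Cdkn2b overlapped those of its neighbours Phlda3 and Ccng1, and that of Cdkn2a those of Bbc3 and Gdf15. Within libraries, Bbc3 was above Cdkn2a in every WT_BLM replicate. Phlda3 was above Cdkn2b in WT_BLM replicates 1 to 3 and below it in replicate 4. Differences between genes were not tested. In KO_BLM, Cdkn1a was still highest at 138 ± 9.86 FPKM, Ccng1 at 62.8 ± 23.5 stood above Cdkn2b at 31.1 ± 5.82, and Cdkn2a at 1.13 ± 0.144 was level with Eda2r at 1.11 ± 0.626.

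Among 30 other p53 targets, 8 were lower and 4 higher in KO_BLM, together 40% against 41.5% of all tested genes, with a median log2 fold change of -0.14. The 8 lower genes included the death receptor genes Tnfrsf10b (log2 fold change -0.93, adjusted p = 0.00422) and Fas (-0.56, 0.0063), Pmaip1, which encodes the BH3-only protein NOXA (-0.56, 0.0181), Apaf1, the scaffold of the apoptosome (-0.31, 0.0294), and the nuclease gene Aen (-0.34, 0.0139). Other genes of the list that act in apoptosis, Bax, Perp and Pidd1, did not pass. The stress kinase gene Plk3 had the largest drop of this list, from 47.6 ± 9.02 to 20.6 ± 1.36 CPM (-1.21, SE 0.14, 0.000184). The adenylate kinase gene Ak1 (-0.63, 0.0167) and Zmat3, an RNA-binding protein gene (-0.46, 0.0111), complete the 8. The list does not hold every p53 target. Ddit4, which fell further, was counted with the stress response genes below.

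Of the 4 that rose, Rrm2b, the ribonucleotide reductase subunit that supplies nucleotides for repair in resting cells, was 17.9 to 19.4 CPM in wild-type and 28.6 to 29.1 CPM in knockout libraries (log2 fold change 0.64, SE 0.08, adjusted p = 0.000258). Xpc, which recognises distorted DNA in nucleotide excision repair, rose from 32.9 ± 1.32 to 46.9 ± 4.66 CPM (0.51, SE 0.09, 0.00196). The other two encode the detoxifying enzymes Ephx1 (0.79, 0.00216) and Dcxr (0.75, 0.00336). Club cell markers, a cell type rich in such enzymes, summed to 2869 to 9171 CPM in WT_BLM and 11297 to 22872 in KO_BLM, and their part was not tested. The number of lower calls was 3 with limma on log2(FPKM + 1). The call of Aen was lost without KO_BLM replicate 2 (adjusted p = 0.0507), and that of Apaf1 when WT_BLM replicate 1, 2 or 3 was left out, or KO_BLM replicate 1 or 2 (at most 0.0908). Both were also lost with library totals alone (0.0779 and 0.141).

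**Figure D5:**
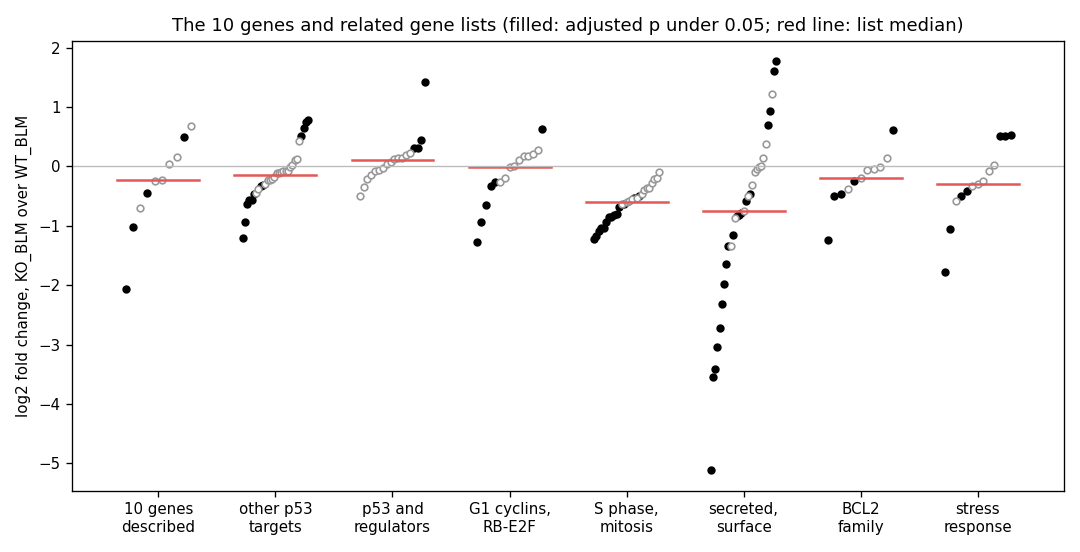
Log2 fold change of KO_BLM over WT_BLM (vertical axis) of each tested gene in the 10 genes described and in 7 related lists, filled where the adjusted p was under 0.05, with the list median in red. All 27 S phase and mitosis genes lie below 0, while p53 targets, G1 genes, BCL2 family and stress response genes lie on both sides.

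The p53 gene itself, Trp53, did not pass the test. Trp53 was 66.8, 91.4, 79.7 and 39.0 CPM in WT_BLM replicates 1 to 4 and 64.3, 67.3, 70.0 and 60.4 CPM in the KO_BLM replicates. All knockout values fell inside the wild-type range, and the log2 fold change of -0.08 (95% interval -0.55 to 0.39, adjusted p = 0.783) took the opposite sign in FPKM-based fits and without WT_BLM replicate 2. Since p53 is controlled mainly through protein stability, its RNA level is no measure of its activity.

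Of 18 genes for p53, its relatives and its regulators, 4 were higher and none lower in KO_BLM. The 4 make 22.2% of the list, against 20.7% of all tested genes called higher and 41.5% called in either direction. The higher genes were Trp73, a p53 relative needed for multiciliated cells (3.57 ± 0.340 to 9.55 ± 2.07 CPM, log2 fold change 1.42, adjusted p = 0.000453), the DNA break response genes Trp53bp1 (0.44, 0.0164) and Rad50 (0.31, 0.021), and Mdm4, an inhibitor of p53 (0.31, 0.0285). Ciliated cell markers summed to 122 to 188 CPM in WT_BLM and 441 to 564 in KO_BLM, and their part in the Trp73 difference was not tested. The Mdm4 call was lost when WT_BLM replicate 1 or 2 was left out, or KO_BLM replicate 1, 2 or 4 (adjusted p at most 0.081), and the Rad50 call when replicate 1 or 2 of either group was (at most 0.0669). Other DNA damage response genes of the list, Atm, Atr, Chek1, Chek2, Prkdc, Nbn and Mre11a, did not pass the test.

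Of 27 S phase and mitosis genes 14 were lower and none higher, and all 27 had negative log2 fold changes, with a median of -0.59. The 14 make 51.9%, against 20.8% of all tested genes called lower. Foxm1, a transcription factor of the G2 and M phases, fell from 22.5 ± 5.88 to 11 ± 0.541 CPM (log2 fold change -1.03, SE 0.17, adjusted p = 0.00151). The mitotic cyclins Ccnb1 (-1.23, 0.00514) and Ccnb2 (-1.04, 0.00481) and the mitosis genes Birc5 (-1.17, 0.00805) and Aurkb (-0.93, 0.00938) also fell. The summed CPM of the list was 434 to 872 in WT_BLM and 400 to 473 in KO_BLM, so the groups overlapped through WT_BLM replicate 4. Without that library 23 of the 27 were called lower. Under limma on FPKM, 5 to 7 were called.

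Upstream in the G1 phase, where these inhibitors act, 5 of 15 cyclin, CDK, RB and E2F genes were lower and 1 higher, with a median of -0.01. These calls make 40% of the list, against 41.5% of all tested genes. The E-type cyclins Ccne1 (log2 fold change -1.26, adjusted p = 0.0102) and Ccne2 (-0.93, 0.0184), which activate the p21 target CDK2, fell. Cdk6, the kinase blocked by p16INK4a and p15INK4b, fell by 0.33 on the log2 scale (adjusted p = 0.0177), a call lost with library totals alone (0.0546) and under limma on FPKM. Of the E2F factors released from RB, E2f3 fell (-0.64, 0.00125) and E2f2 rose (0.63, 0.00249).

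Other features used to recognise senescent cells were read in the same libraries. Of these, Lmnb1 was already counted among the S phase and mitosis genes above, so it is no separate reading. Lmnb1, the nuclear lamin lost in senescence, was 27.6 ± 6.81 CPM in WT_BLM and 21.0 ± 1.36 in KO_BLM (log2 fold change -0.39, adjusted p = 0.0674), which did not pass, and it passed without WT_BLM replicate 4 (-0.50, 0.0195). Glb1, the lysosomal beta-galactosidase behind the senescence stain, fell from 49.0 ± 3.47 to 36.4 ± 8.32 CPM (-0.43, 0.0371). The Glb1 call was lost when WT_BLM replicate 1, 2 or 3 was left out, or KO_BLM replicate 1, 2 or 4 (adjusted p at most 0.0985) and with library totals alone (0.104).

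Of 31 secreted and surface genes reported in senescent cells, 15 were lower and 4 higher, with a median of -0.74. Together they make 61.3%, against 41.5% of all tested genes. Serpine2 (log2 fold change -1.98, adjusted p = 4.84e-06), a protease inhibitor, Igfbp4 (-1.34, 3.08e-05), a binding protein of insulin-like growth factors, and Plaur (-1.16, 6.29e-05), the urokinase receptor, fell. The metalloprotease gene Mmp10 held 54 to 86 reads in wild-type and 0 to 5 in knockout libraries (adjusted p = 7.45e-05). The 4 that rose were Igfbp6, Csf2, Il1a and Vegfa (log2 fold changes 1.78, 1.61, 0.93 and 0.69). Many of these genes are also made by fibroblasts and macrophages, whose markers were lower in KO_BLM as given above, and their part was not tested.

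Gdf15 and Bbc3 can also be induced through the integrated stress response, which acts without p53. Whether it had a part in their levels here was not tested. Of 13 genes of that response 3 were higher and 4 lower, with a median of -0.29. The calls make 53.8% of the list, against 41.5% of all tested genes. Ddit3, the transcription factor CHOP, rose (log2 fold change 0.53, adjusted p = 0.0187), as did its partner gene Cebpg (0.52, 0.0106). Ddit4, an inhibitor of mTOR that is also a p53 target, fell from 126 ± 36.6 to 36.8 ± 6.91 CPM (-1.78, SE 0.22, 0.000324), and Psat1, an enzyme of serine synthesis (-1.06, 0.000466), and Cebpb (-0.41, 0.00701) fell.

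The 5 genes whose levels varied most like Cdkn1a were sought among 11593 genes whose mean reached 5 CPM in both groups, by Pearson correlation of log2 CPM over the 8 libraries after each group's mean was removed. They were C1qtnf6 (r = 0.982), Tmem30b (0.979), Tmem268 (0.977), 2310039H08Rik (0.976) and Lamtor3 (0.975). Since they were picked for the highest r, no p is given. Without the 2 libraries farthest from the median of Cdkn1a, r was 0.802 to 0.910. The likeness therefore rested partly on WT_BLM replicates 2 and 4. Across the groups, C1qtnf6 fell by 2.03 on the log2 scale (adjusted p = 1.56e-05) and Tmem268 by 0.49 (0.00328), whereas Tmem30b (0.12, 0.609), whose sign turned without WT_BLM replicate 2, and 2310039H08Rik (-0.39, 0.0816) did not pass. Lamtor3 (-0.30, 0.0241) lost its call without KO_BLM replicate 1 or 2 (at most 0.0681) and with library totals alone (0.0698), and 2310039H08Rik gained one without WT_BLM replicate 2 (-0.52, 0.0151).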

How the data were processed

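Read counts per gene, in whole numbers, and FPKM values were deposited by the authors. Tools named in the submitters' processing notes, without roles, are Trimmomatic, HTSeq, Cufflinks and DESeq, with the mm10 build. For the aligner and strand setting, nothing is given in the sources used here. Libraries were made from TRIzol-extracted RNA with a stranded TruSeq mRNA kit, per the labels' protocols. All FPKM values equalled count over column total and gene length (relative tolerance 1e-06), so they served only for levels between genes and alternatives. Counts were tested with edgeR 4.0.16 in R 4.3.3 (TMM, filterByExpr with minimum count 10 and minimum total 15, robust quasi-likelihood F test) over all genes, with Benjamini-Hochberg adjustment at 0.05. The members, gene lists and naming rule were chosen with earlier results of these data known.

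The naming rule took the members, all p53 regulators, CDK inhibitors and the ligand, receptor or adaptor genes listed with Eda2r and Gdf15. From each other list it took up to 5 called genes of smallest p. The rule also took Trp53, Mdm4, Lmnb1, Glb1, Slc15a3, the locus neighbours and the 5 genes most like Cdkn1a. Tnfrsf10b, Fas, Pmaip1, Apaf1, Aen, Ak1, Zmat3, Igfbp6, Csf2, Il1a, Vegfa and Mtap fall outside it and were chosen after their values were seen, and not every gene the rule allows is printed. Alternatives used limma 3.58.1, DESeq2 1.42.0, other scaling, filters and left-out libraries. Within groups, every pair of libraries differed beyond sampling noise (chi-square over its degrees of freedom, 7.24 to 55.7). The biological coefficient of variation was 16.6%. The steps were tested on simulated data in which far fewer genes changed than were called here and every gene had the same dispersion. That test therefore does not cover a difference as wide as the present one.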

Additional observations from a re-analysis of the deposited data

Results flagged for a closer look

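In 136 groups of 4 libraries over the genes named, 5 held a library far from the other 3, where chance alone marks about 1 in 20. None of the 5 was among the 10 members. Ephx1 was 122 CPM in WT_BLM replicate 4 against 174 to 177 in the other wild-type libraries, and Dcxr was 48.0 CPM in WT_BLM replicate 2 against 68.3 to 68.8. Plaur was 61.7 CPM in KO_BLM replicate 1 against 51.9 to 53.5. Cebpg was 81.0 CPM in KO_BLM replicate 3 against 103 in the others, and Mtap was 26.3 CPM in KO_BLM replicate 4 against 21.9 to 22.6.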

How the results depend on the processing

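The directions of Cdkn1a, Cdkn2a, Cdkn2b and Bbc3 were the same in all 21 alternatives, and so were the calls, except for Cdkn2b under limma on log2(FPKM + 1) and without KO_BLM replicate 2. Limma-voom with quality weights called 5 members lower and 24 S phase and mitosis genes lower. Leaving out 1 library at a time gave 1 to 2 members called higher and 10 to 23 S phase and mitosis genes lower, the highest without WT_BLM replicate 4. The 10 came without KO_BLM replicate 1. Limma on log2(FPKM + 1), on log2(FPKM + 0.1), and on log2(FPKM + 1) with a mean FPKM of at least 1 called 3, 3 and 5 other p53 targets lower and 5, 6 and 7 S phase and mitosis genes lower. The last of these called 1988 genes lower over all genes. The cause of these changes was not tested.

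Signs near 0 turned. Ccng1 was -0.128 under limma-voom with quality weights and -0.0428 to 0.333 with libraries left out. The same left-out range was -0.0577 to 0.205 for Trp53inp1, -0.278 to 0.0813 for Trp53 and -0.0175 to 0.293 for Tmem30b. Trp53inp1 was negative without WT_BLM replicate 2 (-0.0577), WT_BLM replicate 3 (-0.0214), KO_BLM replicate 3 (-0.0217) or KO_BLM replicate 4 (-0.0500). Trp53 was 0.0681, 0.0732 and 0.0681 in the 3 FPKM fits, in the order above. With library totals alone the median log2 fold change of all genes moved to 0.0883 and 62.7% of calls were higher, against 50.0% with TMM.

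No sign that the replicate numbers pair the libraries was seen. Deviations of same-numbered libraries correlated at -0.0922 to 0.0887, and 1 of 8 libraries correlated best with its own number. With 4 libraries per group, these values cannot exclude a shared batch. With the replicate number as a block, 2878 genes were called higher and 2824 lower, and the members' calls were 1 higher and 3 lower, as without it. Of the other genes named, Mcl1 (adjusted p = 0.0568) and Edaradd (0.0587) lost their calls under the block. Depth limits genes with few reads, such as Cdkn2a and Edaradd. Cdkn2a's log2 fold change was -1.32 on the log2(FPKM + 1) scale, where the pseudocount shrinks low genes.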
